A study of Mus musculus with 16 samples.

Results

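Sod1, Sod2, Sod3, Cat, Gpx1, Gpx3, Gpx4, Prdx3, Prdx5 and Txnrd2 encode enzymes that remove superoxide and hydrogen peroxide. These 10 genes were taken as a set by name, each read through the brightest probe set that the annotation assigns to 1 gene symbol, and the mitochondrial enzymes were compared with the others over the 4 groups of the study. Of the 10 genes, 9 were measured, out of 22180 genes on the array, and each had 1 probe set. Prdx5 was not analysed here, because the annotation used names it on no probe set, alone or with other genes. The mitochondrial members measured were therefore 3 (Sod2, Prdx3 and Txnrd2), and 6 act mainly elsewhere (Sod1, Sod3, Cat, Gpx1, Gpx3 and Gpx4).

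The respiratory chain leaks electrons to oxygen, which gives superoxide. Superoxide dismutases turn superoxide into hydrogen peroxide: SOD2 in the mitochondrial matrix, SOD1 mostly in the cytosol, and SOD3 outside the cell. Catalase breaks hydrogen peroxide down in peroxisomes, glutathione peroxidases reduce it with glutathione, and peroxiredoxins reduce it with electrons from thioredoxin. In the matrix, PRDX3 is reduced by thioredoxin 2, which TXNRD2 regenerates with NADPH. PGC-1α is a transcriptional coactivator of mitochondrial genes and is abundant in the kidney tubule, a tissue that depends on oxidative metabolism.

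RNA from whole kidneys of male mice was hybridized to 16 Affymetrix Mouse Gene 2.0 ST arrays, 4 in each of 4 groups. NiPKO (nephron-inducible PGC-1α knockout) mice on HFD, with 60 kcal% fat, were compared with control mice on HFD, and NiPKO mice on chow, with 10 kcal% fat, with control mice on chow; the diets lasted 20 weeks. NiPKO mice carried PGC-1α fl/fl, with both alleles flanked by loxP sites on a C57BL/6 background, and Pax8-rtTA and tetO-cre (LC1) from a mixed background, and their controls were littermates whose alleles the labels do not list. Doxycycline, which turns on the recombinase, was put in the drinking water (0.2 mg/ml) when the mice were 12 weeks old and taken away after 2 weeks, before the diets began. Pax8-rtTA acts along the renal tubule and spares the glomerulus, so whole kidney RNA held cells with and without recombination, and the study also describes recombination in the liver. The labels call the arrays biological replicates but tie none to an animal, so the p-values rest on the spread among the arrays, which may in part be technical. In such tissue, fewer cells of a type and less RNA per cell cannot be told apart.

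The probe set for Ppargc1a, the targeted gene, read 9.96 to 10.07 in HFD NiPKO and 9.32 to 9.57 in HFD control kidneys, and 9.91 to 10.18 in chow NiPKO and 9.56 to 9.68 in chow control kidneys, on the deposited log2 scale. It was thus higher in kidneys labelled NiPKO on both diets. Which exons the probe set covers is not known here, so it checks nothing about the labels, and NiPKO below means a kidney so labelled. By PCR the study reports recombination of the targeted exons in NiPKO kidneys and strongly reduced PGC-1α mRNA there. Its array list for chow also has Ppargc1a as higher in NiPKO kidneys. The array means of 9 proximal tubule markers lay between 12.08 and 12.22 in all 16 arrays. None of these markers passed the test between genotypes, where 0.825% of all genes passed on HFD and 1.28% on chow.

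By the RefSeq annotation of GRCm38.p6, Sod2 lies at chr17:13007839-13018119, Prdx3 at chr19:60864066-60874538 and Txnrd2 at chr16:18426417-18479073. Sod1 lies at chr16:90220762-90226333, Sod3 at chr5:52363804-52369738, Cat at chr2:103453904-103485153, Gpx1 at chr9:108339080-108340342, Gpx3 at chr11:54902854-54910387 and Gpx4 at chr10:80047166-80056439. The 250 bases before the annotated start are given for the 3 mitochondrial members, since Sod2 and Prdx3 were lower in NiPKO kidneys and Txnrd2 did not pass the test. Each is read 5′ to 3′ on the strand of the gene, at chr17:13007589-13007838 (plus strand) for Sod2, chr19:60874539-60874788 (minus strand) for Prdx3 and chr16:18426167-18426416 (plus strand) for Txnrd2. Capitals mark the GC box, the short element bound by SP1 (letters GGGCGG, or CCGCCC where it lies on the opposite strand).
Sod2: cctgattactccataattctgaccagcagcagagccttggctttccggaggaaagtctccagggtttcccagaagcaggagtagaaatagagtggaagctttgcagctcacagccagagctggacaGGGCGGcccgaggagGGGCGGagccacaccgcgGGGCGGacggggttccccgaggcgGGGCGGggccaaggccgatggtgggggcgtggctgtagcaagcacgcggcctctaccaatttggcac
Prdx3: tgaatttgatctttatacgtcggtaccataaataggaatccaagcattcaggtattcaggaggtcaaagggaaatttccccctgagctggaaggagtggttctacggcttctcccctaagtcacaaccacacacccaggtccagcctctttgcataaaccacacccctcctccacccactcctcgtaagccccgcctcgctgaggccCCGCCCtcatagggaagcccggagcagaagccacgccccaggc
Txnrd2: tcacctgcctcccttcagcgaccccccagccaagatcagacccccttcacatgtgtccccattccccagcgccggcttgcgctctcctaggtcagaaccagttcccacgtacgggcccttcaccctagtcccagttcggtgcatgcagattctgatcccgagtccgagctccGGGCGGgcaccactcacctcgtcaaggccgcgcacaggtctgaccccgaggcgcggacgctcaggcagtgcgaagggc
Sod2 held 4 GC boxes, Prdx3 held 1 and Txnrd2 held 1, and 32.7% of 32851 RefSeq promoters of this length held at least 1 on either strand. How often promoters hold 4 was not counted. Sod1, which was not called, also held 4. Cat and Gpx3 held 1 each, Gpx1 held 0, and Gpx4 held 0 to 2 depending on the annotated start. The 3 windows shown were searched on both strands for 3 other elements chosen after the expression values were seen. The estrogen-related receptor element (letters TNAAGGTCA, in 1.14% of promoters), the NRF1 site (GCGCA, any base, then GCGC, in 3.74%) and the core of the antioxidant response element (TGACNNNGC, in 10.2%) were not found in these 3 windows, which says only that those letters are not there.

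Sod2, the manganese superoxide dismutase of the matrix, was lower in NiPKO kidneys on both diets. Its log2 values were 11.48, 11.55, 11.53 and 11.50 in HFD NiPKO kidneys, against 11.75, 11.73, 11.79 and 11.70 in HFD control kidneys. On chow they were 11.53, 11.45, 11.47 and 11.47 in NiPKO kidneys, against 11.72, 11.67, 11.64 and 11.76 in control kidneys. Every NiPKO array lay below every control array of the same diet, and the 8 NiPKO arrays together lay below the 8 control arrays. The log2 fold change was -0.229 ± 0.046 (SE, n = 4 arrays a group) on HFD, a 1.17-fold difference (limma, adjusted p = 0.028), and -0.215 ± 0.046 on chow, a 1.16-fold difference (limma, adjusted p = 0.027).

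**Figure D1:**
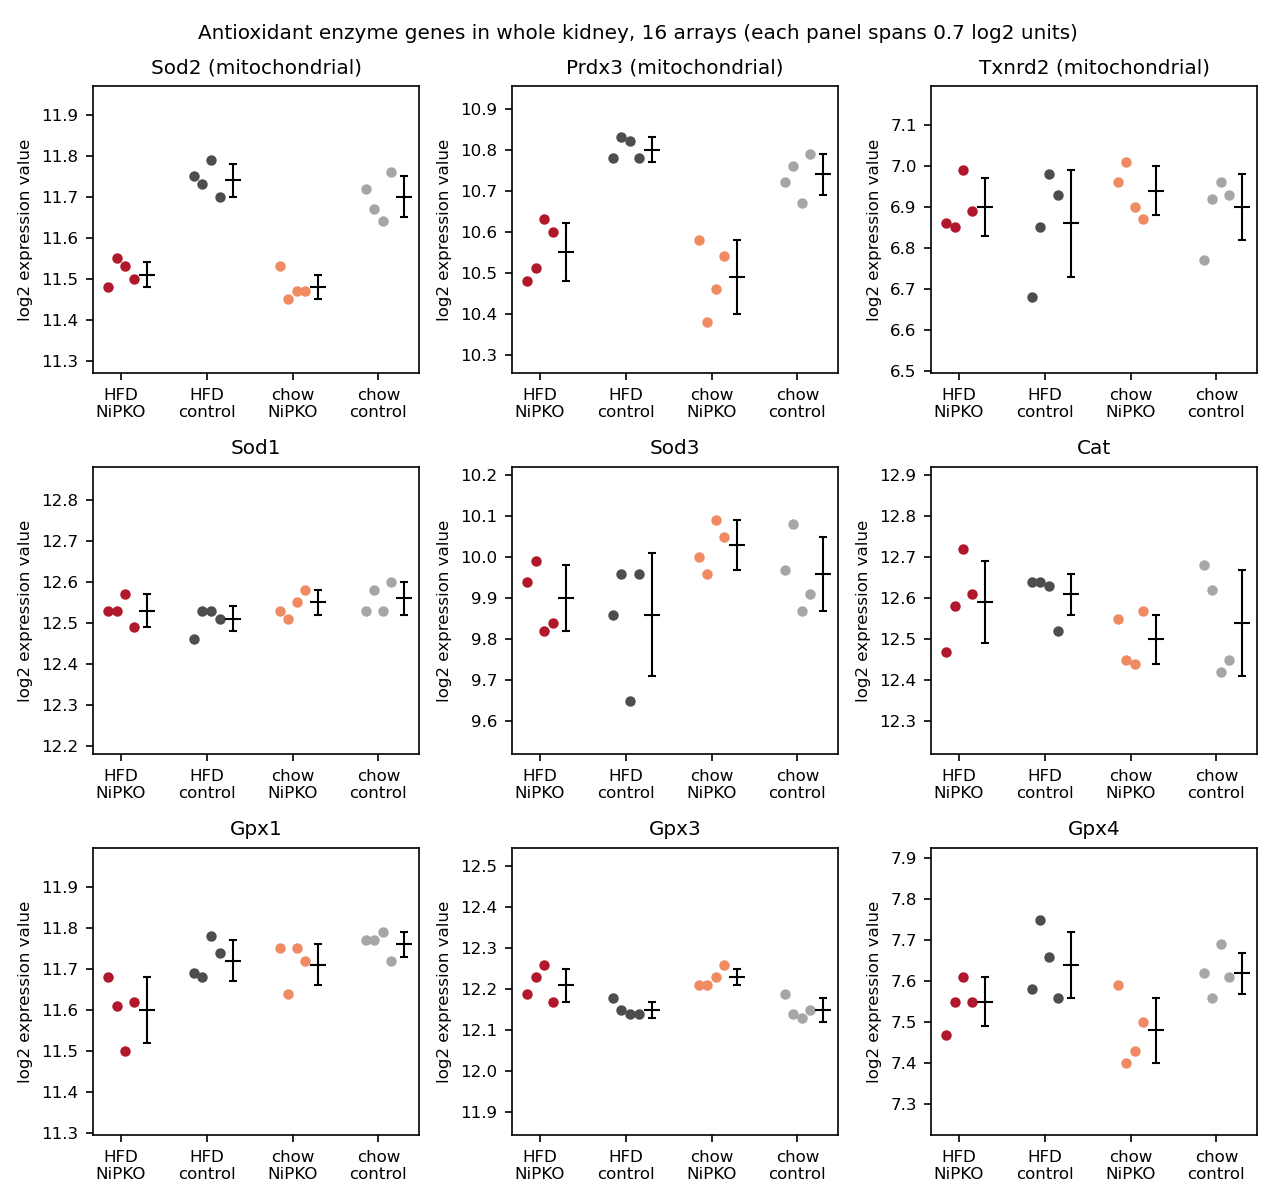
Deposited log2 expression values of the 9 measured genes in each of the 16 arrays; points are arrays, and the bar with whiskers is the group mean ± SD (n = 4). Every panel spans 0.7 log2 units on an axis that does not start at 0, and in the Sod2 and Prdx3 panels all NiPKO points lie below all control points.

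Prdx3, the peroxiredoxin of the matrix, had the same pattern. Its log2 values were 10.48, 10.51, 10.63 and 10.60 in HFD NiPKO kidneys, against 10.78, 10.83, 10.82 and 10.78 in HFD control kidneys. On chow they were 10.58, 10.38, 10.46 and 10.54 in NiPKO kidneys, against 10.72, 10.76, 10.67 and 10.79 in control kidneys. Here too no NiPKO array reached the lowest control array. The log2 fold change was -0.247 ± 0.055 (SE) on HFD (limma, adjusted p = 0.047) and -0.248 ± 0.055 on chow (limma, adjusted p = 0.035), each a 1.19-fold difference.

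Txnrd2, the reductase that serves the same thioredoxin system, read 6.86, 6.85, 6.99 and 6.89 in HFD NiPKO kidneys, against 6.68, 6.85, 6.98 and 6.93 in HFD control kidneys. On chow it read 6.96, 7.01, 6.90 and 6.87 in NiPKO kidneys, against 6.77, 6.92, 6.96 and 6.93 in control kidneys. The groups overlapped on both diets. The 95% interval of its log2 fold change ran from -0.107 to 0.179 on HFD and from -0.102 to 0.184 on chow, so a change of the size seen for Sod2 in the same direction lay outside both intervals, and an increase of up to 1.14-fold did not.

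Of the 9 genes, 2 were thus called lower and none higher on HFD, where 0.595% of all genes were called lower and 0.23% higher. On chow 2 were called lower and none higher, where 0.974% of all genes were called lower and 0.302% higher. Neither gene reached the 1.2-fold change that the study's methods set for the array together with p under 0.05, so by that rule none of the 9 genes passed in either genotype comparison, beside 3.72% of all genes on HFD and 4.42% on chow. The adjusted p-values lay close to the threshold. On chow both calls were lost when control replicate 1, 2 or 4 or NiPKO replicate 2, 3 or 4 was left out, with adjusted p up to 0.1 for Sod2 and 0.14 for Prdx3. On HFD the call of Prdx3 was lost without any 1 of the 8 arrays (adjusted p from 0.065 to 0.16), and that of Sod2 without any but control replicate 4 (adjusted p up to 0.099).

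The fit on only the arrays of both groups compared and the methods' t-test also left none of the 9 genes called. The fold changes themselves moved little: over all alternatives run Sod2 stayed between -0.242 and -0.213 on HFD and between -0.234 and -0.194 on chow, and Prdx3 between -0.271 and -0.224 on HFD and between -0.278 and -0.212 on chow.

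**Figure D2:**
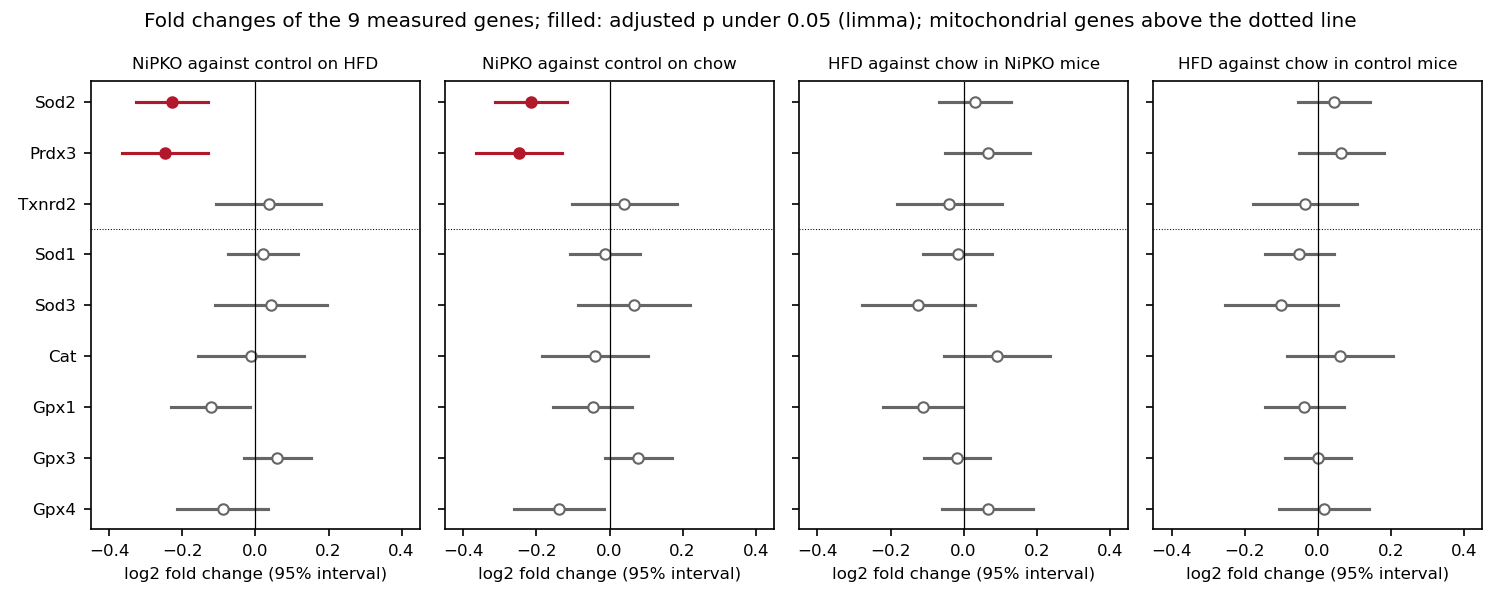
Log2 fold changes with 95% intervals from the limma fit over 16 arrays for the 9 genes (rows) in 4 comparisons (panels); filled points have an adjusted p under 0.05 and the dotted line separates the 3 mitochondrial genes above from the other 6. The intervals of Sod2 and Prdx3 lie below 0 in both genotype panels and cross 0 in both diet panels.

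The other superoxide dismutases did not pass the test. Sod1, the copper-zinc enzyme of the cytosol, read 12.53, 12.53, 12.57 and 12.49 in HFD NiPKO kidneys, against 12.46, 12.53, 12.53 and 12.51 in HFD control kidneys, and 12.53, 12.51, 12.55 and 12.58 in chow NiPKO kidneys, against 12.53, 12.58, 12.53 and 12.60 in chow control kidneys. All 16 values lay within 12.46 to 12.60, and the groups overlapped. Its log2 fold change was 0.021 (95% interval -0.074 to 0.116) on HFD and -0.013 (-0.108 to 0.083) on chow, which leaves room for a change of at most 1.08-fold. Sod3, the extracellular enzyme, read 9.82 to 9.99 in HFD NiPKO kidneys, against 9.65 to 9.96 in HFD control kidneys, and 9.96 to 10.09 in chow NiPKO kidneys, against 9.87 to 10.08 in chow control kidneys. Its groups overlapped on both diets, with log2 fold changes of 0.042 ± 0.073 (SE) on HFD and 0.067 ± 0.073 on chow.

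Catalase and the glutathione peroxidases likewise gave no call between genotypes. Cat read 12.47 to 12.72 in HFD NiPKO kidneys, against 12.52 to 12.64 in HFD control kidneys, and 12.44 to 12.57 in chow NiPKO kidneys, against 12.42 to 12.68 in chow control kidneys. The genotypes overlapped throughout, and the log2 fold change was -0.011 ± 0.068 (SE) on HFD and -0.040 ± 0.068 on chow.

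Gpx1, the most widespread glutathione peroxidase, of the cytosol and mitochondria, read 11.68, 11.61, 11.50 and 11.62 in HFD NiPKO kidneys, against 11.69, 11.68, 11.78 and 11.74 in HFD control kidneys. On HFD the groups did not overlap, although the highest NiPKO and the lowest control value both round to 11.68, and the log2 fold change was -0.122 ± 0.051 (SE; limma, adjusted p = 0.38). On chow it read 11.75, 11.64, 11.75 and 11.72 in NiPKO kidneys, against 11.77, 11.77, 11.79 and 11.72 in control kidneys, a log2 fold change of -0.046 ± 0.051.

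Gpx3, the peroxidase that the proximal tubule secretes into plasma, read 12.19, 12.23, 12.26 and 12.17 in HFD NiPKO kidneys, against 12.18, 12.15, 12.14 and 12.14 in HFD control kidneys. On chow it read 12.21, 12.21, 12.23 and 12.26 in NiPKO kidneys, against 12.19, 12.14, 12.13 and 12.15 in control kidneys. Every NiPKO array lay above every control array on chow, while the groups overlapped on HFD. The log2 fold change was 0.060 ± 0.043 (SE; limma, adjusted p = 0.67) on HFD and 0.079 ± 0.043 (limma, adjusted p = 0.49) on chow.

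Gpx4, which reduces lipid peroxides within membranes, read 7.47, 7.55, 7.61 and 7.55 in HFD NiPKO kidneys, against 7.58, 7.75, 7.66 and 7.56 in HFD control kidneys. On chow it read 7.59, 7.40, 7.43 and 7.50 in NiPKO kidneys, against 7.62, 7.56, 7.69 and 7.61 in control kidneys. The groups overlapped on both diets, and the log2 fold change was -0.090 ± 0.058 (SE; limma, adjusted p = 0.63) on HFD and -0.139 ± 0.058 (limma, adjusted p = 0.33) on chow. Pseudogenes of Gpx4 exist in the mouse genome and may share sequence with its probes, so this value is less certain than the others.

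Counted over the 9 genes, the groups did not overlap for 3 on HFD (Sod2, Prdx3 and Gpx1, all lower), where 6.88% of all genes did not overlap, and for 3 on chow (Sod2 and Prdx3 lower, Gpx3 higher), where 7.44% did not. The median log2 fold change of the 9 genes was -0.011 on HFD and -0.040 on chow, against medians of 0.00165 and 0.00673 over all genes. The genotype-by-diet interaction, a test of the difference between the HFD and chow fold changes, was -0.013 ± 0.065 (SE; limma, adjusted p = 0.97) for Sod2 and 0.001 ± 0.078 (limma, adjusted p = 1) for Prdx3. By limma none of the 9 genes had an interaction at an adjusted p under 0.05 or an unadjusted p under 0.05, where 0% of all genes had one at an adjusted p under 0.05, and 4.6% a negative and 3.64% a positive one at an unadjusted p under 0.05.

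The mitochondrial and the other genes were then compared as classes. Each gene was centred on its mean over the 16 arrays before averaging, so that no probe's level was set against another's. The mitochondrial mean was -0.062 ± 0.045 in HFD NiPKO, 0.084 ± 0.052 in HFD control, -0.082 ± 0.036 in chow NiPKO and 0.059 ± 0.040 in chow control kidneys (log2, SD, n = 4). The mean of the other 6 genes was -0.018 ± 0.019 in HFD NiPKO, -0.001 ± 0.025 in HFD control, 0.001 ± 0.038 in chow NiPKO and 0.017 ± 0.031 in chow control kidneys. The mitochondrial class mean averages over unlike members, since Txnrd2 had log2 fold changes of 0.036 on HFD and 0.041 on chow beside the negative ones of Sod2 and Prdx3.

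The difference of the class means, mitochondrial minus other, was -0.045 ± 0.040 in HFD NiPKO and 0.085 ± 0.058 in HFD control kidneys, and -0.083 ± 0.038 in chow NiPKO and 0.042 ± 0.061 in chow control kidneys. All NiPKO arrays lay below all control arrays of their diet. NiPKO minus control was -0.130 on HFD, where the mitochondrial class differed by -0.147 and the other class by -0.017, and -0.125 on chow, where the mitochondrial class differed by -0.141 and the other class by -0.015. This is a description of chosen genes and carries no test. Without Sod1, Gpx1 and Gpx4, whose products also occur in mitochondria, it was -0.177 on HFD and -0.176 on chow.

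**Figure D3:**
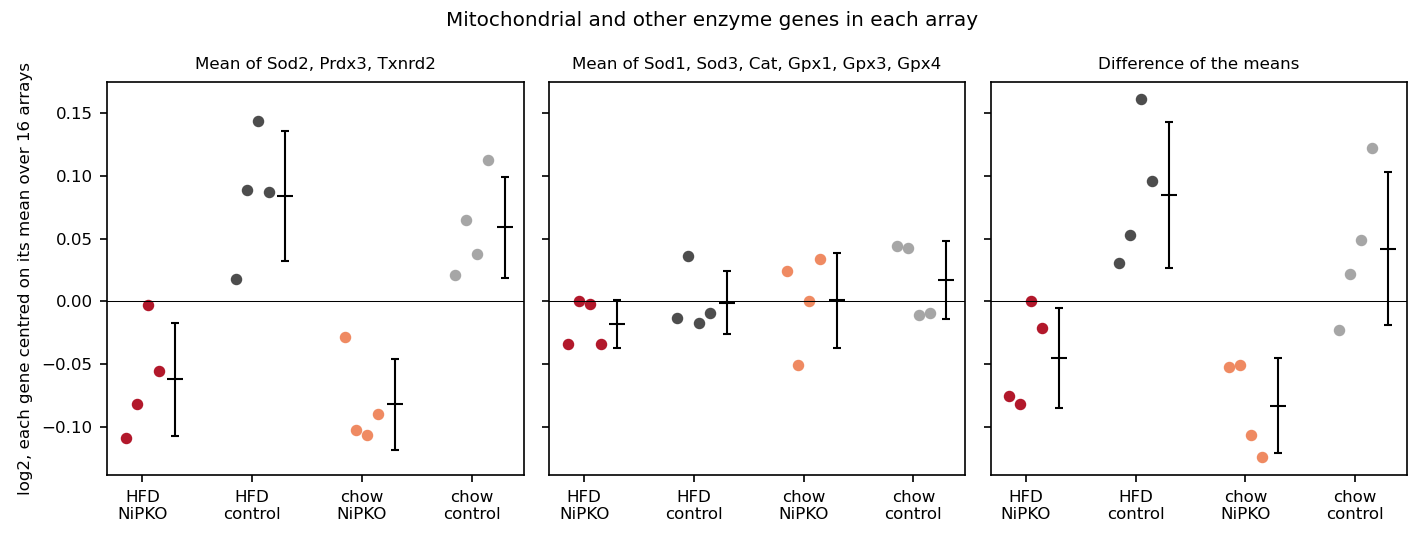
Class means in each of the 16 arrays, in log2 units after each gene was centred on its mean over all arrays: the 3 mitochondrial genes (left), the other 6 genes (middle) and the difference (right); points are arrays, and bars with whiskers are group means ± SD (n = 4). In the right panel the NiPKO points lie below the control points of the same diet, while in the middle panel the groups overlap.

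Diet gave no call among the 9 genes. Between HFD and chow, 0 of 9 genes passed an adjusted p under 0.05 by limma in NiPKO mice, where 0.261% of all genes passed, with 1 (Gpx1, lower) at an unadjusted p under 0.05, beside 5.64% of all genes lower and 7.73% higher. Among controls 0 of 9 passed, where 0.564% of all genes passed, with 0 at an unadjusted p under 0.05, where 6.44% of all genes were lower and 6.65% higher. For none of the 9 did the diet groups separate without overlap, beside 8.24% of all genes in NiPKO and 7.12% in control mice. Gpx1 in NiPKO mice had a log2 fold change of -0.112 ± 0.051 (SE; limma, adjusted p = 0.35) and Sod3 one of -0.124 ± 0.073 (limma, adjusted p = 0.49). For Sod2 it was 0.032 ± 0.046 in NiPKO and 0.045 ± 0.046 in control mice, and for Prdx3 0.066 ± 0.055 in NiPKO and 0.065 ± 0.055 in control mice. The 95% intervals of the 9 genes bounded any diet difference to at most 1.21-fold in NiPKO and 1.19-fold in control mice.

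The genes around these enzymes were taken from 7 lists, 89 of whose 98 genes were measured. Among 21 measured peroxidases and thioredoxin system genes outside the set, 2 were called lower in NiPKO kidneys on HFD (Srxn1 and Glrx), beside 0.595% of all genes, and 1 on chow (Srxn1), beside 0.974%. None was called higher, beside 0.23% of all genes on HFD and 0.302% on chow. Srxn1, sulfiredoxin, restores peroxiredoxins that hydrogen peroxide has overoxidized. Its log2 values were 7.99, 8.18, 8.17 and 8.09 in HFD NiPKO kidneys, against 8.48, 8.47, 8.55 and 8.47 in HFD control kidneys, and 8.10, 8.20, 8.20 and 8.03 in chow NiPKO kidneys, against 8.53, 8.46, 8.41 and 8.47 in chow control kidneys. No NiPKO array reached the lowest control array on either diet. The log2 fold change was -0.381 ± 0.058 (SE; limma, adjusted p = 0.0063) on HFD and -0.334 ± 0.058 (limma, adjusted p = 0.0072) on chow, and the calls were kept without any single array. They were lost with the methods' t-test once its p-values were adjusted (adjusted p = 0.079 on HFD and 0.089 on chow). The chow call was also lost in the fit on only the chow arrays. By its own rule, without a stated adjustment, the study lists Srxn1 and Glrx as lower in NiPKO kidneys on both diets.

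Glrx, the cytosolic glutaredoxin that removes glutathione from proteins, had a log2 fold change of -0.521 ± 0.088 (SE; limma, adjusted p = 0.011) on HFD, a call lost in the fit on only the HFD arrays and with the methods' t-test (adjusted p = 0.2). On chow it was -0.288 ± 0.088 (limma, adjusted p = 0.15). Txn2, the thioredoxin that passes electrons to PRDX3, had -0.150 ± 0.069 on HFD (limma, adjusted p = 0.45) and -0.163 ± 0.069 on chow (limma, adjusted p = 0.34), and Prdx2, a cytosolic peroxiredoxin, had -0.136 ± 0.067 on HFD (limma, adjusted p = 0.49) and -0.283 ± 0.067 on chow (limma, adjusted p = 0.051). Txn2 and Prdx2 are named for their link to the set, after their values were seen. By its own rule the study lists Prdx2 as lower in NiPKO kidneys on chow.

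Of 8 regulators, 1 was called lower in NiPKO kidneys on both diets (Sirt3) and 1 higher on both (the Ppargc1a probe set described above), where 0.595% of all genes were called lower and 0.23% higher on HFD, and 0.974% lower and 0.302% higher on chow. Sirt3, the matrix deacetylase that activates SOD2, read 8.48 to 8.69 in HFD NiPKO kidneys, against 8.92 to 9.11 in HFD control kidneys, and 8.56 to 8.69 in chow NiPKO kidneys, against 8.97 to 9.09 in chow control kidneys. The genotypes were apart on both diets. Its log2 fold change was -0.446 ± 0.060 (SE; limma, adjusted p = 0.0023) on HFD and -0.436 ± 0.060 (limma, adjusted p = 0.0015) on chow, and no single array decided the calls, while the methods' t-test lost the one on HFD (adjusted p = 0.084). That adjusted test also lost both Ppargc1a calls (adjusted p = 0.076 on HFD and 0.082 on chow). By its own rule the study lists Sirt3 as lower in NiPKO kidneys on both diets.

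**Figure D4:**
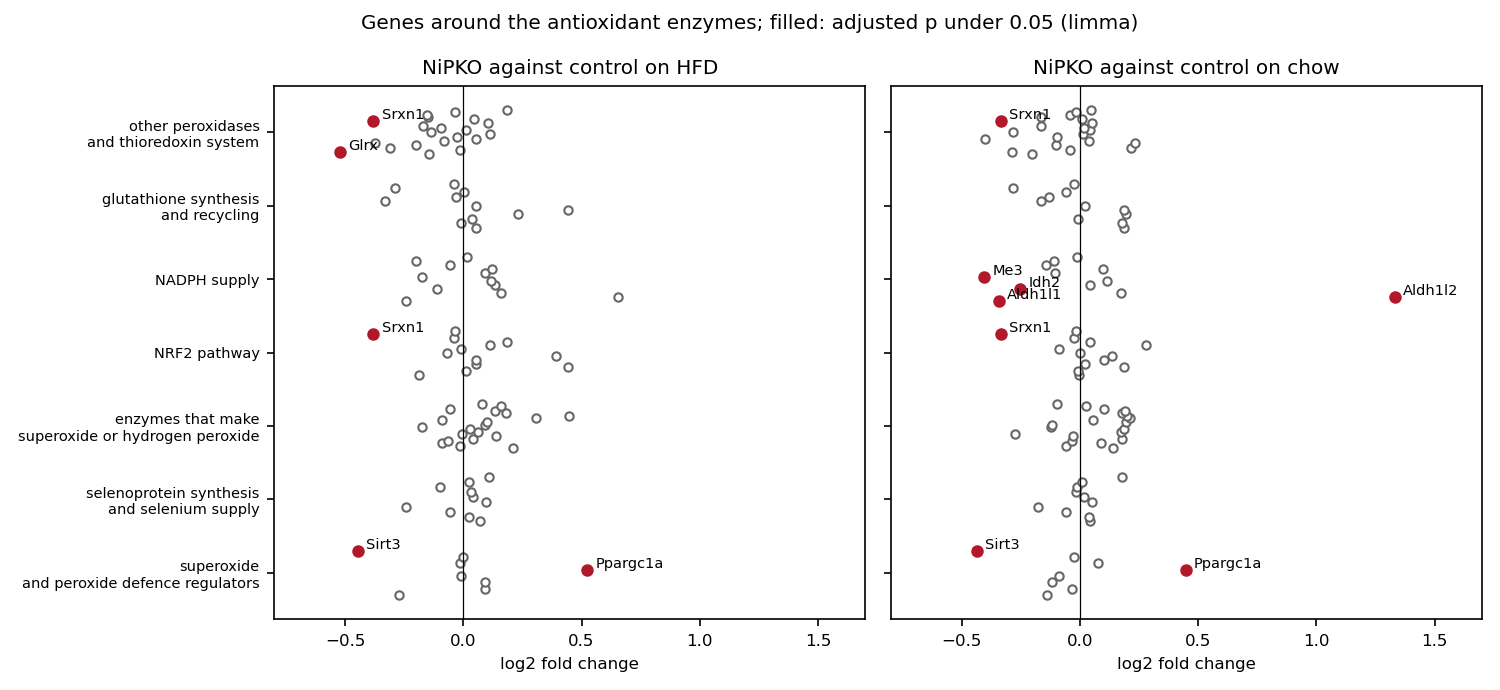
Log2 fold changes, NiPKO against control, of the measured genes in 7 lists (rows) on HFD (left) and chow (right); each point is a gene, and filled, named points have an adjusted p under 0.05 by limma. Srxn1, which is in 2 lists, and Sirt3 lie left of 0 in both panels, and Aldh1l2 lies farthest right on chow.

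NADPH feeds both the glutathione and the thioredoxin systems. Of 12 measured NADPH supply genes, none was called on HFD, where 1 was lower and 3 were higher at an unadjusted p under 0.05 (limma), beside 5.26% and 5.55% of all genes. On chow 3 were called lower and 1 higher, beside 0.974% and 0.302% of all genes. The 3 were Me3, a mitochondrial malic enzyme (log2 fold change -0.406 ± 0.094, SE; limma, adjusted p = 0.045), Idh2, a mitochondrial isocitrate dehydrogenase (-0.252 ± 0.059; limma, adjusted p = 0.046), and Aldh1l1, the cytosolic formyltetrahydrofolate dehydrogenase (-0.343 ± 0.069; limma, adjusted p = 0.02). When the 8 arrays were left out in turn, Me3 kept its call in 2 of 8 fits (without control replicate 4 or NiPKO replicate 1), Idh2 in 1 (without NiPKO replicate 4) and Aldh1l1 in 4 (without control replicate 3 or 4 or NiPKO replicate 1 or 3), with adjusted p up to 0.15 for Me3, 0.16 for Idh2 and 0.073 for Aldh1l1. Under the 8 other alternatives the call was kept in 5 for Me3, 4 for Idh2 and 6 for Aldh1l1. Me3 had 2 probe sets, of which the brightest is given. Aldh1l2, the mitochondrial form of the last enzyme, read 5.99 to 6.54 in chow NiPKO kidneys, against 4.41 to 5.21 in chow control kidneys. It was higher on chow (log2 fold change 1.331 ± 0.167, SE; limma, adjusted p = 0.00072, and 0.12 with the methods' t-test). The control values lay below the array medians, and no background level was available for them, so the size of this difference is uncertain. On HFD the log2 fold change was 0.654 ± 0.167 (limma, adjusted p = 0.093). By its own rule the study lists Aldh1l2 as higher in NiPKO kidneys on both diets, and Me3 and Aldh1l1 as lower on chow. Nnt, the transhydrogenase that makes NADPH in the inner mitochondrial membrane, had log2 fold changes of -0.201 ± 0.105 on HFD and -0.110 ± 0.105 on chow.

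Of 13 measured genes of the NRF2 pathway, the transcriptional response to oxidants, 1 was called, Srxn1, lower on both diets and already counted above. Of all genes 0.595% were called lower and 0.23% higher on HFD, and 0.974% lower and 0.302% higher on chow. Nqo1, a quinone reductase often used to read NRF2 activity, had a log2 fold change of 0.112 ± 0.068 (SE; limma, adjusted p = 0.6) on HFD and 0.281 ± 0.068 (limma, adjusted p = 0.056) on chow. The study lists Nqo1 as higher in NiPKO kidneys on chow by its own rule. None of 11 measured genes of glutathione synthesis and recycling was called by limma between genotypes on either diet. Nor was any of 20 measured genes of enzymes that make superoxide or hydrogen peroxide, or of 10 of selenoprotein synthesis. Of all genes 0.825% were called on HFD and 1.28% on chow. At an unadjusted p under 0.05 on HFD, where 5.26% of all genes were lower and 5.55% higher, the glutathione list had 2 lower and 2 higher, the oxidant-making list 1 lower and 5 higher, and the selenoprotein list 1 lower and 0 higher. On chow, where 6.53% of all genes were lower and 5.95% higher, the glutathione list had 2 lower and 2 higher, and the oxidant-making and selenoprotein lists each had 1 lower and 1 higher. The selenoprotein list bears on Gpx1, Gpx3, Gpx4 and Txnrd2, which all carry selenocysteine. The list medians on HFD ran from -0.095 (other peroxidases and thioredoxin system) to 0.071 (oxidant-making enzymes), and on chow from -0.061 (regulators) to 0.096 (oxidant-making enzymes).

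The genes whose values followed Sod2 most closely over the 16 arrays, among 11081 genes compared, were Cox7a2 (Pearson r = 0.975), Ndufa9 (0.959) and Ndufa8 (0.958), subunits of respiratory chain complexes. For Prdx3 they were Cox7a2 (0.94), Uqcrb (0.934), a complex III subunit, and Pgk1 (0.929), a glycolytic enzyme. Sod2 and Prdx3 had r = 0.937. These arrays share the genotype difference, and after the group means were removed the values were 0.717, 0.51 and 0.715 for the 3 genes beside Sod2, 0.558, 0.824 and 0.605 for those beside Prdx3, and 0.53 between Sod2 and Prdx3. Cox7a2 had log2 fold changes of -0.31 on HFD (limma, adjusted p = 0.011) and -0.32 on chow (limma, adjusted p = 0.0053).

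Markers of other cell types were read beside these values. Between genotypes 0.825% of all genes were called on HFD and 1.28% on chow, so few calls would be due in lists this short. The array mean of 7 measured adipocyte markers was 5.97 to 6.86 in HFD NiPKO, 5.60 to 6.01 in HFD control, 5.70 to 5.77 in chow NiPKO and 5.68 to 5.88 in chow control kidneys. None of the 7 passed the test between genotypes on HFD, where all 7 had positive log2 fold changes with a median of 0.349. Their part in the HFD comparison of the antioxidant genes was not tested. On chow 5 of the 7 had negative log2 fold changes, with a median of -0.062. The array mean of 7 measured leukocyte markers was 6.29 to 6.44 in HFD NiPKO, 6.03 to 6.34 in HFD control, 6.10 to 6.42 in chow NiPKO and 6.03 to 6.36 in chow control kidneys. None was called, and all 7 had positive log2 fold changes on HFD (median 0.145) and 5 of 7 on chow (median 0.062). Of 6 collecting duct markers, 1 was called lower in NiPKO kidneys on chow, beside 0.974% of all genes, and none was called on HFD. The 1 was Aqp3, a water channel (log2 fold change -0.265; limma, adjusted p = 0.012, and 0.077 in the fit on only the chow arrays). All 5 endothelial markers had negative log2 fold changes on HFD (median -0.090) and on chow (median -0.094), none of them called. The part of the leukocyte, collecting duct and endothelial markers in these results was not tested. No marker of the thick ascending limb and distal tubule, podocytes or smooth muscle was called between genotypes, and only 1 of 9 red blood cell markers was measured, too few to read.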

How the data were processed

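Whole kidney RNA from 16 arrays (4 a group) was analysed. The deposited values are log2 expression per probe set, which the authors made with Partek according to the processing notes. Its version is not given in the sources read, nor is the background correction or the normalization. They ran from 2.07 to 13.8, with array medians of 5.35 to 5.40, and any 2 arrays correlated at 0.986 to 0.992. Precision is limited by the number of arrays. Of 41345 probe sets, 23521 carry 1 gene symbol, 1820 several and 16004 none in the annotation given. The brightest probe set stood for each of 22180 genes (1082 had several).

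Group means were fitted over all 16 arrays with limma 3.58.1 in R 4.3.3 (lmFit and eBayes), with Benjamini-Hochberg adjustment over all genes and a threshold of 0.05. The methods' rule (p under 0.05, fold over 1.2) was counted separately. A fold change is the first group over the second. The fit was tested on simulated data whose changes were larger than those of Sod2 and Prdx3. That test does not bear on calls of their size. The alternatives were the arrays of both groups alone, quantile normalization, median centring, brighter genes only, the methods' t-test, a robust prior with trend, averaging all probe sets of a gene, a replicate block and leaving out each array. The t-test alternative took the same Benjamini-Hochberg adjustment, so its calls are not those of the methods' rule. The genes named were the set, list genes past the test, and others marked as picked later. The set and the lists were chosen with earlier results of these data known. Promoters came from RefSeq (GRCm38.p6).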

Additional observations from a re-analysis of the deposited data

Results flagged for a closer look

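Among 40 groups of 4 arrays examined for 1 array far from the rest, 1 stood out, and chance would give about 1 in 20. Cat read 12.52 in HFD control replicate 4, the lowest of its group, whose other arrays read 12.63 to 12.64. The gap to the nearest array was 0.906 of the group's range, above the 95% critical value of Dixon's ratio for 4 values. Without that array the log2 fold change of Cat, NiPKO against control on HFD, was -0.0384.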

How the results depend on the processing

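Of the 9 antioxidant genes, 2 were called on each diet between genotypes. With only the arrays of both groups, with the methods' t-test and with the replicate block this became 0 on HFD and 0 on chow, and with median centring 1 on HFD. Leaving out 1 array gave 0 to 1 called on HFD and 0 to 2 on chow, and 0 to 1 past p under 0.05 and 1.2-fold on each diet. Over all 22180 genes, leaving out 1 array gave 57 to 161 called on HFD and 147 to 264 on chow. With all arrays 183 were called on HFD and 283 on chow. With only the arrays of both groups 43 were called on HFD and 75 on chow. The adjusted t-test called 8 and 47, and the replicate block 101 and 224. Between genotypes the direction of Sod2 and Prdx3 was kept under every alternative run. Under the block the adjusted p (limma) was 0.073 for Sod2 and 0.095 for Prdx3 on HFD, and 0.071 for Sod2 and 0.073 for Prdx3 on chow. The deviations of same-numbered arrays correlated at -0.0976 to 0.166. Such values over all genes cannot show whether same-numbered arrays share more than a number. The block also lost the calls of Idh2 on chow (adjusted p = 0.084) and of Acox2 between diets in NiPKO mice (0.055). Under quantile normalization the direction reversed for Cat on HFD (0.0264), Sod1 on chow (0.0225) and Gpx3 between diets in control mice (-0.007), and for the Prdx3 interaction (-0.00183). Under median centring it reversed for Gpx3 (-0.0302) and Gpx4 (-0.014) between diets in control mice and the Sod2 interaction (0.0104). None of these was called. Leaving out 1 array, NiPKO against control, gave -0.0518 to 0.0312 for Cat, -0.0282 to 0.0778 for Sod3 and -0.0237 to 0.0749 for Txnrd2 on HFD, and -0.0806 to 0.00442 for Cat, -0.0256 to 0.0022 for Sod1 and -0.000576 to 0.0632 for Txnrd2 on chow. Between diets in control mice it gave -0.00735 to 0.0129 for Gpx3, -0.02 to 0.0422 for Gpx4 and -0.0763 to 0.0248 for Txnrd2, and for the interaction -0.0347 to 0.00528 for Sod2 and -0.0352 to 0.0304 for Prdx3. Without members found in more than 1 compartment, mitochondrial minus other was -0.176 on chow. The cause of these shifts was not tested.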

Other observations

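The 9 antioxidant genes showed no call between diets. Of the 89 measured list genes, 2 were called lower on HFD in control mice, beside 0.388% of all genes. In NiPKO mice 1 was called lower, beside 0.135%. None was called higher, beside 0.176% of all genes in control and 0.126% in NiPKO mice. Acox2, a peroxisomal oxidase of branched-chain acids and bile acid intermediates that releases hydrogen peroxide, read 8.94 to 9.31 in HFD NiPKO kidneys, against 9.64 to 9.68 in chow NiPKO kidneys, and 8.63 to 9.15 in HFD control kidneys, against 9.45 to 9.67 in chow control kidneys. The diets did not overlap in either genotype, beside 8.24% of all genes in NiPKO and 7.12% in control mice. Its log2 fold change, HFD against chow, was -0.519 ± 0.095 (SE, n = 4; limma, adjusted p = 0.03) in NiPKO and -0.588 ± 0.095 (limma, adjusted p = 0.014) in control mice. In NiPKO mice the call was kept without chow replicate 1 or HFD replicate 1. It was lost without any 1 of the other 6 arrays (adjusted p up to 0.089). In control mice it was lost without chow replicate 3 (adjusted p = 0.051) and in the fit on only the arrays of both groups. Aldh1l1 was lower on HFD in control mice (-0.400 ± 0.069; limma, adjusted p = 0.018), with -0.301 ± 0.069 in NiPKO mice (limma, adjusted p = 0.075). The call in control mice was lost without chow replicate 2 or 3 or HFD replicate 2 or 3 (adjusted p up to 0.067). It was also lost in the fit on only the arrays of both groups. That fit called 14 of 22180 genes between diets in control mice, where the main fit called 125. The methods' test, adjusted the same way, called 0 of 22180 genes between diets in either genotype. It therefore could not decide any of these calls.

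Ggct and Dpep1, enzymes of glutathione breakdown, did not pass the test. Ggct had a log2 fold change, HFD against chow, of -0.543 ± 0.144 in NiPKO (limma, adjusted p = 0.11) and -0.377 ± 0.144 in control mice (limma, adjusted p = 0.27). Dpep1 had -0.237 ± 0.077 in NiPKO (limma, adjusted p = 0.18) and -0.272 ± 0.077 in control mice (limma, adjusted p = 0.13). Pstk, a kinase in selenocysteine synthesis, had a log2 fold change, NiPKO against control, of -0.244 ± 0.068 on HFD (limma, adjusted p = 0.14) and -0.177 ± 0.068 on chow (limma, adjusted p = 0.28).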
